A study of Mus musculus with 18 samples.

Results

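661W cells, a line from a mouse retinal tumour that is used as a photoreceptor-like model, were transfected in normoxia (21% O2) with 1 µg of a plasmid for nsHif1a or for eGFP, and their mRNA was sequenced 20 h later. nsHif1a is a Myc-tagged mouse Hif1a with amino acids exchanged so that the protein is not degraded in the presence of oxygen, expressed from the CMV promoter. The libraries were chosen by their labels, 4 with nsHif1a and 4 with eGFP, which are 8 of the 18 libraries of the series, the other 10 being retinas. The nsHif1a insert was in an AAV plasmid backbone and the eGFP insert in a pcDNA plasmid, so insert and backbone cannot be told apart. The RNA came from whole cultures, and the transfected share of the cells was not measured in these data. The labels do not say whether libraries of a group came from separate cultures, so p-values measure the spread between these libraries, which may be technical.

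HIF1A is the oxygen-regulated subunit of a transcription factor. With oxygen, prolyl hydroxylases (EGLN proteins) mark it for ubiquitination by the VHL complex and FIH (Hif1an) blocks its transactivation domain. Without oxygen it pairs with ARNT and binds the hypoxia response element, whose core is ACGTG or GCGTG, near genes for glucose uptake, glycolysis, angiogenesis and mitochondrial turnover. Photoreceptors rely on aerobic glycolysis and receive their oxygen from the choroid.

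Expression is given as CPM, a gene's count as a share of its library's TMM-adjusted total, scaled to a fixed sum. The totals ranged from 13424326 to 17809585 counts, and 3 counts corresponded to 0.168 to 0.223 CPM, a limit that covers counting error only. Of 21723 protein-coding genes in the table, 12076 passed the filter on low counts. Defining genes of photoreceptors were at or near 0 in these cells. Rcvrn and Arr3 had 0 to 1 counts per library, Nrl and Crx 0 to 2, and Opn1sw 0 to 3. Otx2, a factor of photoreceptor fate, had 335 to 608 counts, and Vim and Fn1, genes of mesenchymal cells, had 37791 to 53608 and 17136 to 23981. Of the 10 genes of microglia and macrophages C1qa and C1qb were at 0 in all 8 libraries and 3 passed the filter, namely Tmem119 (193 to 773 counts), Cd68 (50 to 250) and Csf1r (2 to 38).

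The libraries fell into pairs by their number. Libraries 1 and 2 of a group differed from each other by 1.53 to 1.58 times the sampling noise, and libraries 3 and 4 by 1.47 to 1.59 times. Libraries of the same group but of different pairs differed by 3.62 to 3.82 times with eGFP and by 7.02 to 8.32 times with nsHif1a. On the first principal component, which held 50.2% of the variance, nsHif1a libraries 1 and 2 were at 45.0 and 46.6 and the other 6 libraries between -23.7 and -7.31. The labels do not say what the pairs are. The pair was a covariate of the fit, each effect is also given per pair, and the spread within a pair may be that of technical repeats.

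Hif1a was the first gene examined, since the plasmid carries it. The eGFP libraries 1 to 4 had 152, 150, 161 and 164 CPM, and the nsHif1a libraries had 1222, 1242, 1954 and 1825 CPM. Every nsHif1a library was above every eGFP library, and libraries 3 and 4 were the highest. In bulk RNA, more expressing cells and more RNA per cell cannot be told apart. The log2 fold change (log2FC) was 3.29 (SE 0.09), with an adjusted p of 8.5e-08 by limma with the Benjamini-Hochberg (BH) adjustment. It was 3.03 in libraries 1 and 2 and 3.53 in libraries 3 and 4, and this difference passed the test (limma, BH-adjusted p = 5.07e-05). In GRCm39 the gene (ENSMUSG00000021109.14) spans chr12:73948149-73996321 and reads forward, and its count holds endogenous and plasmid transcripts together. Per kilobase of exon, Hif1a was at 19.9 CPM with eGFP and 196 CPM with nsHif1a, whereas its paralogue Epas1 (HIF2A) was at 2.08 and 2.48 and the partner Arnt at 14.4 and 15.1.

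Across all protein-coding genes, nsHif1a cells showed mainly higher expression. Genes were called at a BH-adjusted p under 0.05 by limma and an absolute log2FC above 0.5. By this rule 429 genes (3.55%) rose and 43 (0.356%) fell, with median log2FC of 0.83 and -0.64 among them and 0.01 over all genes tested. Past an absolute log2FC of 1 there were 143 higher and 2 lower genes. The 4 nsHif1a libraries lay entirely above the 4 eGFP libraries for 1063 genes (8.8%) and entirely below them for 804 (6.66%), including 296 of the genes called higher and 27 of those called lower. With the labelled library number as a block in a paired fit, 94 genes rose and 0 fell (2984 genes at an unadjusted p under 0.05), and without any covariate 167 rose and 4 fell. Omission of a library 1 or 2 of either group left 159 to 173 higher genes, and omission of a library 3 or 4 gave 854 to 927. With the 2 libraries of each pair added together, Hif1a was the single protein-coding gene called. Each condition then has a single value per pair, which leaves little to estimate the spread from, so genes not called there may still differ.

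**Figure D1:**
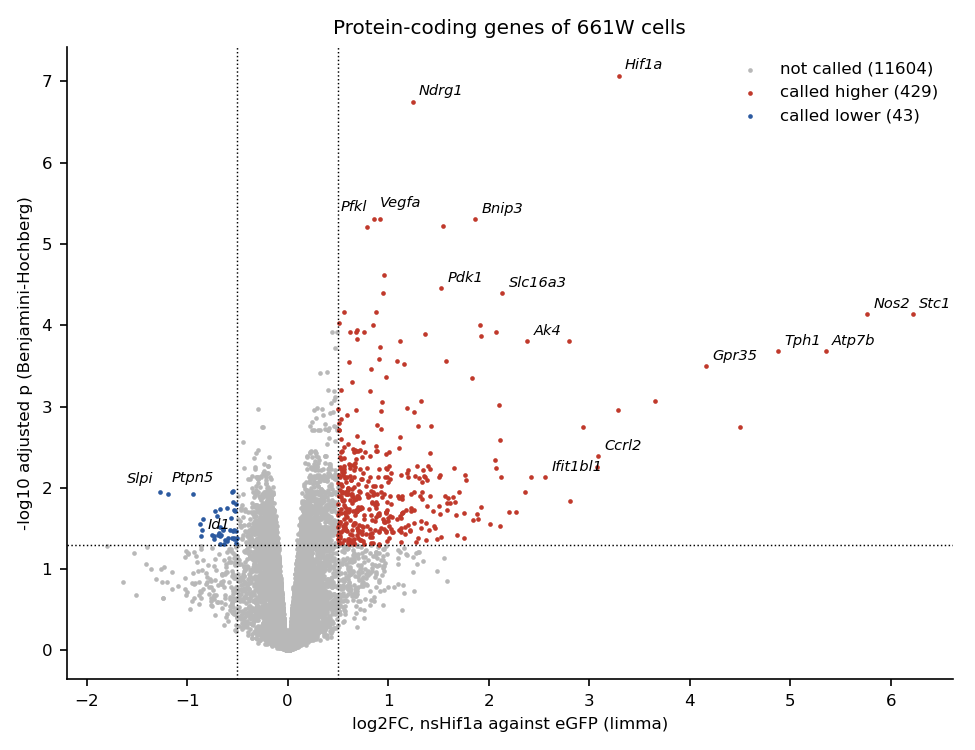
Each point is a protein-coding gene, with the log2FC of nsHif1a against eGFP on the x axis and the -log10 of the BH-adjusted p from limma on the y axis, and dotted lines mark the thresholds. The 429 genes called higher reach a log2FC of 6.21 (Stc1), whereas the 43 called lower end at -1.27 (Slpi).

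The genes with the largest rises were nearly silent in the control cells, which the selection favours. Stc1, Nos2, Atp7b and Tph1 passed the filter on low counts through the nsHif1a group. A ranking by log2FC then puts genes near 0 in the controls first. Stc1, which encodes the secreted glycoprotein stanniocalcin 1, had 0, 1, 0 and 0 counts with eGFP and 60, 29, 71 and 56 counts with nsHif1a. Its pooled CPM ratio was 203 (95% exact interval 36 to 8041, counting error only), and its fitted log2FC of 6.21 depends on the small offset added to counts in the fit. Nos2, the inducible nitric oxide synthase, had 1, 3, 2 and 2 counts with eGFP and 173, 135, 159 and 105 with nsHif1a (log2FC 5.77, SE 0.41). Atp7b, a copper transporter, had 2, 0, 2 and 2 counts against 58, 45, 133 and 83 (log2FC 5.35, SE 0.46). For each of these genes no library of one group came near any of the other, but groups apart were a condition of this ranking. Tph1, a tryptophan hydroxylase of the serotonin pathway, had 1, 1, 1 and 0 counts against 28, 38, 48 and 29, a pooled ratio of 44.7 (95% exact interval 15 to 219). Gpr35, a G protein-coupled receptor, had 1, 6, 5 and 3 counts against 44, 46, 111 and 100 (log2FC 4.16). The other genes among the 15 with the largest rises whose groups were apart, beside Hif1a, were Gpr15lg (4.50), Smtnl2 (3.66), Mgarp (3.28), Ccrl2 (3.09), Ifnb1 (3.08), Epm2a (2.94), Rnf152 (2.80), Ifit1bl1 (2.56) and Ak4 (2.38). Epm2a encodes laforin, a phosphatase of glycogen, and Ccrl2 an atypical chemokine receptor.

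Genes linked to HIF in 11 hand-written lists, with Hif1a itself left out, held 146 names, of which 126 were tested. Of these 37 (29.4%) rose and 1 fell, against 3.55% and 0.356% of all genes tested, and the median log2FC was 0.22 against 0.01. The nsHif1a libraries lay above all eGFP libraries for 56 of the 126. These lists were written with earlier results of the data known, so the counts describe the lists and do not test them. The median over the 126 genes was 0.27 in libraries 1 and 2 and 0.18 in libraries 3 and 4.

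**Figure D2:**
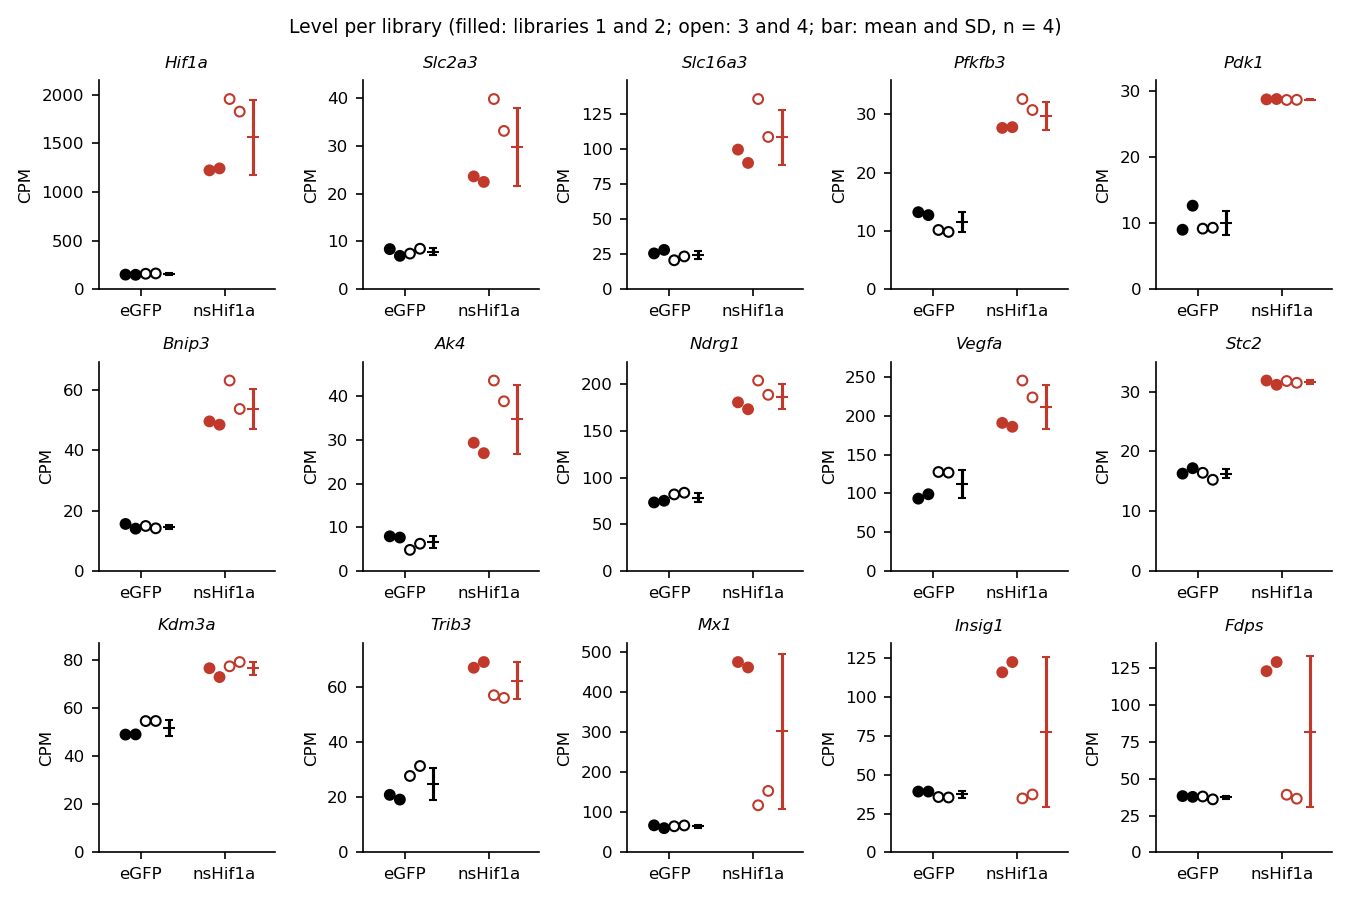
CPM of 15 genes in each library (y axes from 0), with eGFP in black, nsHif1a in red, libraries 1 and 2 as filled and 3 and 4 as open circles, and mean and SD beside them (n = 4). The genes of glucose use, mitophagy and angiogenesis are higher in all 4 nsHif1a libraries, whereas Insig1 and Fdps are higher in nsHif1a libraries 1 and 2 and near the controls in 3 and 4.

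Within the HIF system 6 of 14 tested members rose, 1 of them Hif1a itself, whose count holds the plasmid transcripts. Vhl, the ubiquitin ligase subunit that removes HIF1A, had a log2FC of 0.53 (SE 0.05), and Siah2, a ligase that acts on the EGLN proteins, also 0.53 (SE 0.07). The transcriptional repressors Bhlhe40 and Bhlhe41 rose by 0.92 and 1.09 on the log2 scale and Ankrd37, a known HIF target, by 1.02. The prolyl hydroxylases did not pass both thresholds. Egln1 had a log2FC of 0.39 (limma, BH-adjusted p = 0.0074), with 57.7 to 65.9 CPM with eGFP and 73.6 to 92.8 CPM with nsHif1a. Egln3 had 0.42, Egln2 -0.11, Hif1an -0.02, Arnt 0.08 and Epas1 0.25. Hif3a had at most 2 counts and was not tested.

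Glucose and lactate transporters rose for 3 of 7 tested members. Slc16a3 (MCT4), which exports lactate, had 25.6, 28.1, 20.8 and 23.5 CPM with eGFP and 99.6, 90.1, 136 and 109 CPM with nsHif1a (log2FC 2.13, SE 0.14). Slc2a3 (GLUT3) had 8.41, 7.001, 7.47 and 8.48 CPM against 23.6, 22.4, 39.7 and 33.1 (log2FC 1.91, SE 0.14). For both genes the groups were far apart, and nsHif1a libraries 3 and 4 were above 1 and 2. Slc2a1 (GLUT1) rose by 0.62, from 118 to 127 CPM with eGFP to 167 to 210 CPM with nsHif1a. The lactate importer Slc16a1 (MCT1) had a log2FC of -0.11. Per kilobase of exon Slc16a1 was at 16.96 CPM with eGFP and 15.6 with nsHif1a, and Slc16a3 went from 2.23 to 9.80.

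Along glycolysis itself most rises were small. Of 15 tested enzymes Pfkl and Eno2 (13.3%) were called higher, against 3.55% of all genes. The groups were apart, with nsHif1a higher, for 7 of the 15, against 8.8% of all genes. Pfkl, the liver form of phosphofructokinase, had 80.7, 84.1, 64.5 and 66.5 CPM with eGFP and 146, 150, 127 and 115 CPM with nsHif1a (log2FC 0.86, SE 0.04), and the neuronal enolase Eno2 had a log2FC of 0.76 (SE 0.06). The median of the list was 0.13, and 14 of 15 had a log2FC above 0. Pfkp (0.49), Tpi1 (0.39), Hk2 (0.22) and Hk1 (0.20) had BH-adjusted p-values by limma of 0.00012, 0.00037, 0.02 and 0.013 but stayed under the log2FC threshold. The abundant enzymes were close to 0, with Gapdh at 0.03, Pkm at 0.00, Eno1 at 0.04, Aldoa at 0.08, Pgk1 at 0.12 and Ldha at 0.20.

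Among the enzymes that direct glucose carbon, Pdk1 and Pfkfb3 rose. Pdk1, the kinase that closes pyruvate dehydrogenase, had 9.01, 12.6, 9.17 and 9.31 CPM with eGFP and 28.7, 28.7, 28.6 and 28.6 CPM with nsHif1a (log2FC 1.53, SE 0.09). Pfkfb3, which makes the activator of phosphofructokinase, had 13.2, 12.7, 10.2 and 9.84 CPM against 27.6, 27.8, 32.6 and 30.7 (log2FC 1.37, SE 0.11). The groups were apart for both, and they were the called members among the 10 PFKFB and PDK genes and phosphatases tested. Pdk2 had a log2FC of -0.28, Pdk3 0.19, Pdk4 0.02 and Pfkfb4 0.10. In glycogen metabolism 2 of 12 tested genes rose, namely glycogen synthase Gys1 (0.68) and the phosphatase subunit Ppp1r3b (0.89), and Pgm1 had a log2FC of 0.47. Stbd1, a glycogen-binding protein named after its values were seen, rose by 0.69.

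Mitochondrial and mitophagy genes named as HIF targets rose for 5 of 9 tested members. Bnip3, a receptor that targets mitochondria to autophagy, had 15.6, 14.0, 14.9 and 14.1 CPM with eGFP and 49.5, 48.4, 63.0 and 53.6 CPM with nsHif1a (log2FC 1.86, SE 0.09). Ak4, an adenylate kinase of the mitochondrial matrix, had 7.93, 7.65, 4.82 and 6.23 CPM against 29.4, 26.98, 43.6 and 38.9 (log2FC 2.38, SE 0.20). All nsHif1a libraries were over 3 times the highest eGFP library for both genes. Mgarp (3.28), Higd1a (0.58) and Fam162a (0.54) also rose, whereas the related receptors Bnip3l and Fundc1 had log2FC of 0.22 and -0.04. Ndufa4l2 and Cox4i2, the HIF-responsive forms of respiratory chain subunits, had at most 2 and 4 counts and were not tested.

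Restraints on growth had the highest median of the lists, 0.72, with 6 of 9 tested members higher. Ndrg1 had 73.4, 75.3, 82.0 and 83.9 CPM with eGFP and 181, 173, 204 and 189 CPM with nsHif1a (log2FC 1.24, SE 0.04), and its effect was 1.25 in libraries 1 and 2 and 1.24 in 3 and 4. Ddit4 (REDD1), an inhibitor of mTORC1, had 14.0, 15.9, 15.3 and 17.5 CPM against 42.8, 42.9, 27.8 and 29.4 (log2FC 1.19). Mxi1, an antagonist of MYC, rose by 1.12, Sesn2 by 0.72 and Ndrg2 by 0.68. The cyclin-dependent kinase inhibitors Cdkn1a and Cdkn1b had log2FC of 0.22 and 0.20 and Ndrg3 -0.00.

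Among secreted factors 8 of 19 tested members rose and 1 fell. Vegfa, the main angiogenic factor, had 93.3, 99.0, 128 and 127 CPM with eGFP and 191, 186, 246 and 224 CPM with nsHif1a (log2FC 0.92, SE 0.04). The groups did not overlap, although the pairs differed in each group. Its relatives Vegfb, Vegfc, Vegfd and Pgf had log2FC of 0.21, -0.13, 0.13 and -0.03. Stc2, the second stanniocalcin, had 16.3, 17.2, 16.4 and 15.2 CPM against 31.8, 31.1, 31.8 and 31.5 (log2FC 0.95), and Ero1a, an oxidase of the endoplasmic reticulum counted here, rose by 1.11. The rises of Angpt1 (1.13), Igfbp3 (0.98) and Fgf11 (0.84) were smaller in libraries 3 and 4 (0.23, 0.03 and 0.32), whereas that of Apln (0.90) was 0.26 in libraries 1 and 2 and 1.47 in 3 and 4. Angptl4, a lipoprotein lipase inhibitor that HIF is known to raise, fell, from 3.60, 4.47, 4.18 and 4.20 CPM to 2.64, 1.48, 2.16 and 2.90 (log2FC -0.84, SE 0.19). Epo and Edn2 had 0 counts and Adm at most 2.

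Collagen-modifying enzymes and demethylases, many of which use oxygen, had few called members. Of 12 collagen hydroxylases and lysyl oxidases P4ha1 (0.69) and P4ha2 (0.51) rose, and Plod2 had a log2FC of 0.48. Of 16 histone and DNA demethylases Kdm3a (0.56) and Kdm4b (0.61) rose, against 3.55% of all genes, but 15 of 16 had a log2FC above 0 and the groups were apart, with nsHif1a higher, for 10, against 8.8% of all genes. Kdm3a, which removes histone H3 lysine methylation, had 49.1, 49.1, 54.7 and 54.7 CPM with eGFP and 76.7, 73.0, 77.5 and 79.3 CPM with nsHif1a. Of 6 acid and base transporters tested Slc16a3 and Slc4a4 (0.50) rose. Car9, a carbonic anhydrase known as a HIF target, did not pass the filter on low counts and was not tested. It had 0, 1, 0 and 0 counts with eGFP and 13, 6, 8 and 4 with nsHif1a.

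**Figure D3:**
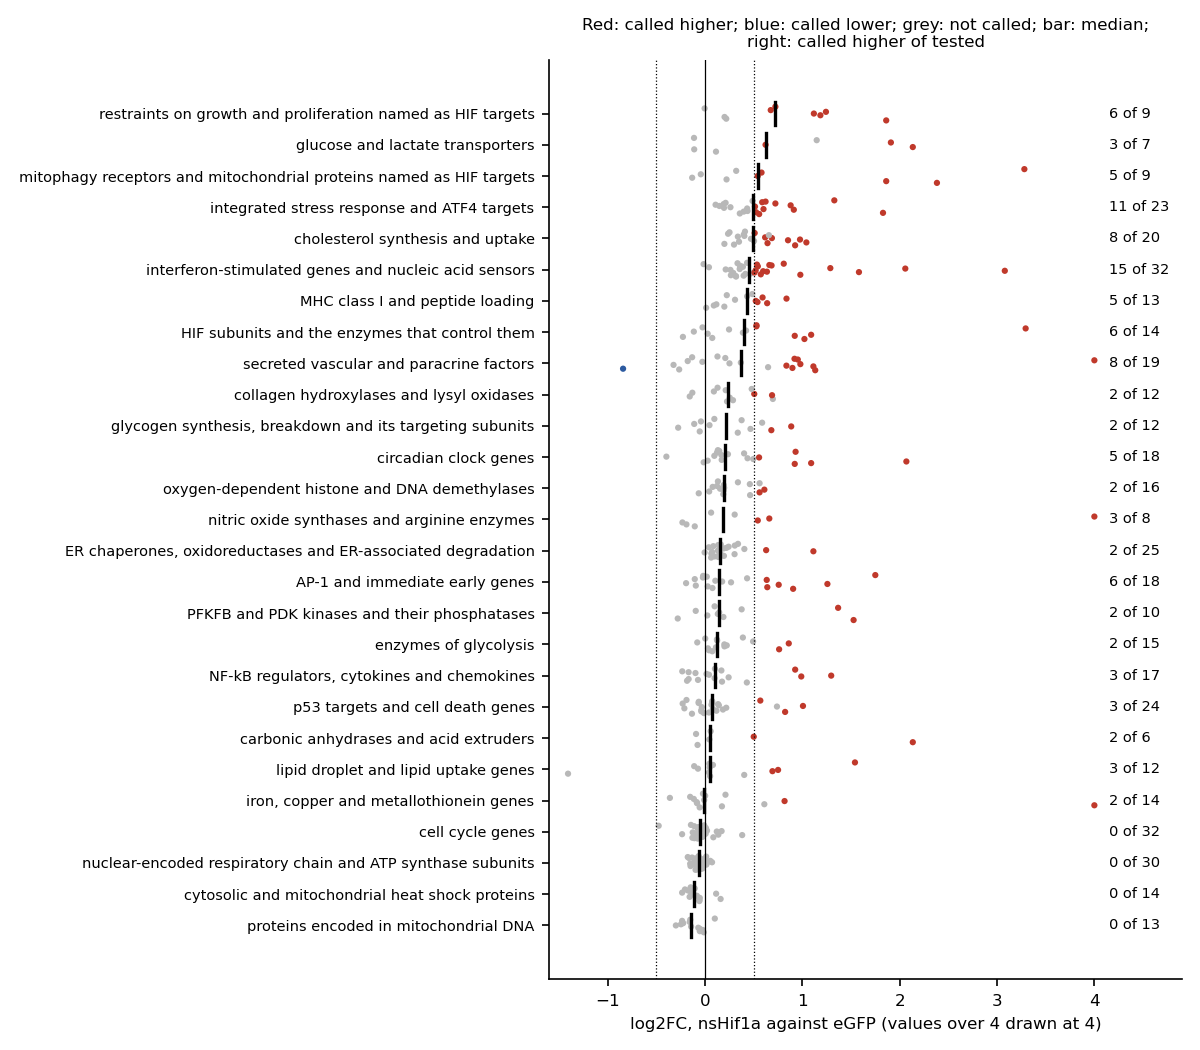
Log2FC of the tested members of 27 gene lists (x axis, values over 4 drawn at 4), ordered by the list median (bar), with the number called higher of those tested at the right. The growth restraints (6 of 9) and transporters (3 of 7) lead, and the cell cycle, heat shock, respiratory chain and mitochondrial DNA lists have no called member.

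Promoters were read for the core of the hypoxia response element, since the factor binds there. In the 300 bases before the start of the canonical transcript (GRCm39), ACGTG on either strand was found for 24.5% of the 12076 genes tested and GCGTG for 45.2%. Of the 37 genes of the HIF lists called higher 15 held ACGTG and 20 GCGTG, and 25 held at least 1 of them. The following windows, which end 1 base before the transcript start, belong to the genes of these lists called higher with the smallest p whose window held ACGTG and no protein-coding exon. Capitals mark ACGTG and GCGTG read on either strand, and CACGTG is the palindrome that holds ACGTG on both strands. They lie at chr7:138511254-138511553 (Bnip3, minus strand), chr6:108636326-108636625 (Bhlhe40, plus strand) and chr17:56632613-56632912 (Kdm4b, plus strand).
Bnip3: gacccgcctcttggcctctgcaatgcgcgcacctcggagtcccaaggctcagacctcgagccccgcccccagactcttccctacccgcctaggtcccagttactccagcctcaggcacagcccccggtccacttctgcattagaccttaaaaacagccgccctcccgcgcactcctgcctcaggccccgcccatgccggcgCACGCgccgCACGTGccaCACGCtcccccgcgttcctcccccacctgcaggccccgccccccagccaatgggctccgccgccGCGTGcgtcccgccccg
Bhlhe40: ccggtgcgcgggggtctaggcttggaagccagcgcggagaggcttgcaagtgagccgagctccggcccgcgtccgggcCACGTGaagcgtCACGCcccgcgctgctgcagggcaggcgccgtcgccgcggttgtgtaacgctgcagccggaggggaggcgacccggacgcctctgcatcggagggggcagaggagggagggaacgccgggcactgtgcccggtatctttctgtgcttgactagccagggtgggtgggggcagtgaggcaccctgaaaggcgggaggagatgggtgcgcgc
Kdm4b: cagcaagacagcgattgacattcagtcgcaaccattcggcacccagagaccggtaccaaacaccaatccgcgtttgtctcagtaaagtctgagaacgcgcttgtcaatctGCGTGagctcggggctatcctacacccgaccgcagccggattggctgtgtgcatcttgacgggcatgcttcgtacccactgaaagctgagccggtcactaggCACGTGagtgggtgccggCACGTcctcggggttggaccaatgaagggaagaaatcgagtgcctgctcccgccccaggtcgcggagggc
The palindrome was in these 3 windows and in 4 of the 15 that held ACGTG in all. ACGTG was found for 23.8% of the 429 genes called higher, for 20.9% of the 43 called lower and for 15.7% of the 236 called higher whose effect was smaller in libraries 3 and 4. It was found for 37.0% of the 135 genes called higher with a log2FC over 0.5 in both pairs and no call of a smaller effect in 3 and 4. Genes with a smaller effect that did not pass that call, such as Bhlhe40 (log2FC of 1.13 and 0.72 in the pairs), are among them. The median number of CG dinucleotides per window, on which a motif with CG depends, was 14 for all genes, 9 for the genes called higher, 6 for the 236 and 12 for the 135. GCGTG was less frequent in each of these groups than in the 45.2% of all genes, at 38% of the 429, 33.1% of the 236, 41.5% of the 135 and 41.9% of the 43. A match is a description of the sequence and not a bound site, and the more distant sequence was not read.

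Many genes of the integrated stress response were higher in nsHif1a cells, more so in libraries 1 and 2. In this response the factor ATF4 raises genes of amino acid supply. Of its 23 members 11 were called higher, against 3.55% of all genes, with a median log2FC of 0.49 and all 23 above 0. The groups were apart, with nsHif1a higher, for 21 of the 23, against 8.8% of all genes. Atf3 had 12.2, 9.53, 14.3 and 14.6 CPM with eGFP and 51.1, 53.3, 33.2 and 42.4 CPM with nsHif1a (log2FC 1.83, SE 0.18). Trib3, a pseudokinase that restrains ATF4, had 20.9, 19.2, 27.8 and 31.4 CPM against 67.1, 69.1, 57.1 and 56.1 (log2FC 1.33, SE 0.14). Every nsHif1a library was above the controls for both, and Cth (0.91), Ppp1r15a (0.88), Ddit3 (0.60) and Atf4 itself (0.53) also rose. The list median was 0.73 in libraries 1 and 2 and 0.32 in 3 and 4. By limma 9 members were called with the block, 5 without any one library 1 or 2, 16 without any one library 3 or 4, 17 in libraries 1 and 2 alone and 4 in libraries 3 and 4 alone. Of 25 chaperones and folding enzymes of the endoplasmic reticulum 2 (8%) rose, Ero1a and Herpud1 (0.63), against 3.55% of all genes. The chaperone Hspa5 had a log2FC of 0.41. Of the 25 members 24 had a log2FC above 0, with a median of 0.16. The groups were apart, with nsHif1a higher, for 16 of the 25, against 8.8% of all genes.

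Interferon-stimulated genes were higher in nsHif1a cells, more so in libraries 1 and 2 than in 3 and 4. Of 32 tested members 15 rose, against 3.55% of all genes. The median log2FC of 0.45 was 0.71 in libraries 1 and 2 and 0.19 in 3 and 4, where 30 of 32 had a log2FC above 0. The groups were apart, with nsHif1a higher, for 26 of the 32, against 8.8% of all genes. For 17 of 32 the effect was smaller in libraries 3 and 4 by the test of the difference, against 5.19% of all genes. The dynamin-like antiviral protein Mx1 had 67.7, 60.7, 65.4 and 67.4 CPM with eGFP and 476, 463, 118 and 154 CPM with nsHif1a (log2FC 2.06, SE 0.30). All nsHif1a libraries exceeded the controls, and libraries 1 and 2 stood far above 3 and 4. Ifit2 showed 281, 273, 321 and 321 CPM against 1650, 1631, 442 and 518. Ifnb1, which encodes interferon beta, had 3, 3, 9 and 8 counts with eGFP and 50, 41, 42 and 88 with nsHif1a (log2FC 3.08, SE 0.47), and its effect did not pass the test of a difference between pairs. MHC class I genes rose for 5 of 13, against 3.55% of all genes, with medians of 0.74 and 0.12 in the 2 pairs. With the library number as a block 1 of the 15 interferon genes and none of the 5 MHC class I genes remained (limma), and in libraries 3 and 4 alone 5 and 0 members of these lists were called. Some cell type markers, with those of mesenchymal cells included, differed between the same libraries. Of the tested photoreceptor markers only Rom1 passed the test of the difference, and narrowly (limma, BH-adjusted p = 0.0498). Its log2FC was 0.09 in libraries 1 and 2 and -0.68 in 3 and 4. Of the 34 genes tested from 10 marker lists 4 were called higher and 0 lower by limma, against 3.55% and 0.356% of all genes. The effect was smaller in libraries 3 and 4 for 7 and larger for 7, against 5.19% and 3.04% of all genes. The 4 called higher were Slc6a9 (0.91), Dkk3 (1.13), Tmem119 (0.69) and Col1a1 (0.72). Of these, Dkk3 and Col1a1 had log2FC of 1.53 and 1.21 in libraries 1 and 2 and of -0.18 and -0.01 in 3 and 4. Tmem119 had 20.1, 19.9, 15.7 and 14.5 CPM with eGFP and 43.5, 42.3, 14.1 and 15.5 CPM with nsHif1a. Col3a1, a fibrillar collagen, had 407, 397, 343 and 366 CPM with eGFP and 871, 886, 346 and 383 CPM with nsHif1a, and Glul, glutamine synthetase, had 89.2, 93.3, 87.9 and 89.6 CPM against 39.95, 38.9, 91.4 and 92.01. The summed level of the tested microglial markers was 28.2 to 32.7 CPM with eGFP, 46.1 to 47.5 CPM in nsHif1a libraries 1 and 2 and 28.4 to 31.6 CPM in 3 and 4, that of the Mueller glia markers 103 to 115, 70.5 to 73.8 and 109 to 111 CPM, and that of the mesenchymal markers 4769 to 4920, 4784 to 4993 and 4839 to 4949 CPM. These sums mix opposite moves. Of the tested microglial markers only Tmem119 was higher in libraries 1 and 2, where Cd68 and Csf1r had log2FC of -1.09 and -2.35. Glul and Sox9 had log2FC of -1.21 and -0.50 there, against the rise of Dkk3. The mesenchymal sum was mostly Vim (2464 to 3204 CPM), and Pdgfra had a log2FC of -1.04 where the collagens rose. The part of the markers in the interferon, MHC class I and cholesterol results was not tested. Of 17 tested inflammatory genes Il6 (1.30), Cxcl10 (0.99) and Tnfaip3 (0.93) rose, against 3.55% of all genes.

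Cholesterol synthesis was higher in libraries 1 and 2 and not in 3 and 4. Of 20 members 8 rose, against 3.55% of all genes. The median of 0.49 was 0.91 in libraries 1 and 2 and -0.01 in 3 and 4. The effect was smaller in 3 and 4 for 17 of 20, against 5.19% of all genes. Fdps, a farnesyl pyrophosphate synthase, had 38.2, 37.7, 37.99 and 36.04 CPM with eGFP and 123, 129, 39.2 and 36.5 CPM with nsHif1a. Insig1, a sterol-responsive regulator of the pathway, had 39.1, 39.1, 35.6 and 35.3 CPM against 116, 122, 34.7 and 37.2. For both, nsHif1a libraries 3 and 4 were at the level of the controls. No member was called without the covariate, with the block, or in libraries 3 and 4 alone, where 10 of 20 had a log2FC above 0. Vldlr, a lipoprotein receptor of the lipid droplet list, was higher in all 4 nsHif1a libraries, with 9.55, 9.34, 11 and 13.3 CPM against 25.99, 25.2, 36.7 and 37.4 (log2FC 1.54, SE 0.08). Hilpda, a lipid droplet protein, rose by 0.69 and Lpin1 by 0.75.

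**Figure D4:**
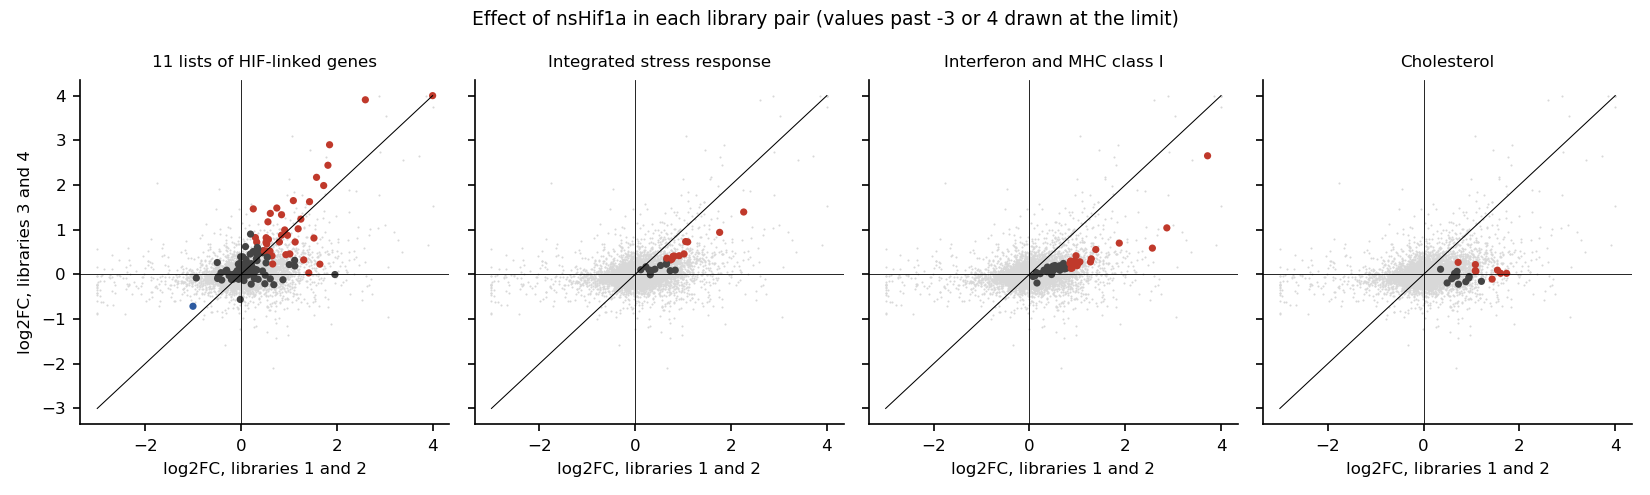
Log2FC of nsHif1a against eGFP in libraries 1 and 2 (x axis) and in libraries 3 and 4 (y axis), with all protein-coding genes in light grey, list members called higher in red, called lower in blue and not called in dark grey. Red points of the HIF-linked lists lie on both sides of the diagonal, whereas those of interferon, MHC class I and cholesterol genes lie below it.

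Other groups moved in part, and their counts stand beside a share of 3.55% called higher among all genes tested. Of 18 clock genes 5 rose, among them Ciart (2.07), a repressor of the clock, with 2.58, 2.27, 3.12 and 2.33 CPM with eGFP and 13.0, 10.5, 10.6 and 9.66 CPM with nsHif1a. Rora (0.93), Nfil3 (0.56), Bhlhe40 and Bhlhe41 were the others, and Bmal1 and Clock had log2FC of -0.01 and 0.03. Of 18 immediate early genes 6 rose, including Fosb (1.26), Fos (0.76), Egr1 (0.64) and Jun (0.63), with 0 of them called under the block (limma). Of 24 genes of p53 and cell death 3 rose, Gdf15 (1.01), Bbc3 (0.82) and Trp53inp1 (0.57). In iron and copper handling Hmox1 rose by 0.82 and Atp7b as above, 2 of 14, and in nitric oxide synthesis Gch1 (0.66), which makes a cofactor of the synthases, rose beside Nos2 and Ddah2 (0.54), 3 of 8.

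Several groups had no called member. Of all genes tested 3.55% were called higher and 0.356% lower, so 0 in a list of this length is near that share. At an unadjusted p under 0.05 (limma) were 4145 of the 12076 genes. For 32 cell cycle genes limma called 0, with log2FC from -0.48 to 0.38, a median of -0.05 and 13 at an unadjusted p under 0.05, and edgeR called 0 and DESeq2 1 lower. For 14 heat shock genes all 3 tools called 0, with log2FC from -0.23 to 0.16 and 9 at an unadjusted p under 0.05. For 30 nuclear-encoded respiratory chain subunits all 3 tools called 0, with log2FC from -0.18 to 0.07 and 10 at an unadjusted p under 0.05. For the 13 proteins of mitochondrial DNA all 3 tools called 0 past the log2FC threshold, yet 7 passed the adjusted p alone. These were mt-Nd1 (-0.30), mt-Nd2 (-0.25), mt-Nd4l (-0.23), mt-Nd3 (-0.22), mt-Nd4 (-0.16), mt-Nd5 (-0.15) and mt-Cytb (-0.14), each with the nsHif1a libraries below every control. mt-Nd1 had 1338, 1379, 1307 and 1208 CPM with nsHif1a and 1679, 1724, 1490 and 1535 CPM with eGFP.

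With both pairs in the fit 43 genes fell, and 463 fell in libraries 1 and 2 alone. Slpi, a secreted protease inhibitor, had 14.8, 14.97, 25.8 and 23.7 CPM with eGFP and 3.15, 2.39, 14.7 and 12.4 CPM with nsHif1a (log2FC -1.27, limma, BH-adjusted p = 0.0112). Its groups were barely apart, since the lowest control was at 14.77 and the highest nsHif1a library at 14.74 CPM. Id1, an inhibitor of differentiation factors, had 85.0, 88.6, 96.8 and 98.1 CPM against 25.3, 25.9, 80.9 and 78.0, so that nsHif1a libraries 1 and 2 were far lower than 3 and 4. In libraries 1 and 2 the log2FC was -2.42 for Slpi, -1.76 for Id1, -1.72 for Ptpn5 and -1.47 for Pcolce2. Gmpr, a GMP reductase, had nearly equal effects in the pairs, -0.72 and -0.72. The remaining largest falls were in Ptpn5 (-1.19), Frmd4b (-0.94), Cxcl12 (-0.87), Hsbp1l1 (-0.85), Pcolce2 (-0.73) and Fgfbp1 (-0.70). Of the 43 genes 23 fell less in libraries 3 and 4 and 0 fell more by the test of the difference, while all 43 had a log2FC below 0 and 10 one below -0.5 in both pairs.

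The pairs differed in the effect of nsHif1a. The log2FC was higher in libraries 3 and 4 for 367 genes (3.04%) and lower for 627 (5.19%), by limma's interaction term at a BH-adjusted p under 0.05 and a difference over 0.5. Of the 429 genes called higher, 236 had a smaller and 14 a larger effect in libraries 3 and 4, 165 had a log2FC above 0.5 in both pairs, and 17 had one below 0 in libraries 3 and 4. Of the 14, 9 belonged to the HIF-linked lists (Slc16a3, Slc2a3, Pfkfb3, Ak4, Mxi1, Ppp1r3b, Ankrd37, Higd1a and Apln), and Hif1a, Hilpda and Rora were among the others. Of the 236, 5 belonged to these lists. Hif1a itself was higher in nsHif1a libraries 3 and 4, as given above, and its part in these differences was not tested.

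The pairs share no library, so each was also fitted alone. Libraries 1 and 2 called 1071 genes higher and 463 lower, and libraries 3 and 4 called 150 and 6. The 104 genes higher in both were 9.71% of the first list and 69.3% of the second, and 1 gene was lower in both. Of the 1071 genes 969 were tested in libraries 3 and 4, where 712 (73.5%) had a log2FC above 0, and of the 150 genes 140 were tested in 1 and 2, where 130 did. Within a pair the spread may be technical, so these counts are descriptions.

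A smaller group of genes was called higher with the library pair as covariate and in 18 other fits with the log2FC threshold of 0.5 on single libraries, which include the block, each pair alone, edgeR, DESeq2 and the omission of each library. It held 63 genes, with 0 among the lower ones (by limma with the pair as covariate 43 were lower). Hif1a was 1 of them and 24 others belonged to the HIF-linked lists, among them Stc1, Ak4, Slc16a3, Slc2a3, Bnip3, Pdk1, Pfkfb3, Ndrg1, Ddit4, Mxi1, Ero1a, Stc2, Vegfa, Pfkl, Gys1, Slc2a1, Kdm4b, Kdm3a and Vhl. Trib3, Atf3, Cth and Ppp1r15a of the integrated stress response were also held, as were Ifnb1, Nos2, Atp7b, Vldlr and Ciart. No gene of the MHC class I, cholesterol, immediate early or p53 lists was in it, nor any of the HIF-linked list of collagen-modifying enzymes. ACGTG was found in the promoter window of 41.3% of the 63 and GCGTG in 50.8%, against 24.5% and 45.2% of all genes, with a median of 16 CG dinucleotides per window against 14.

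**Figure D5:**
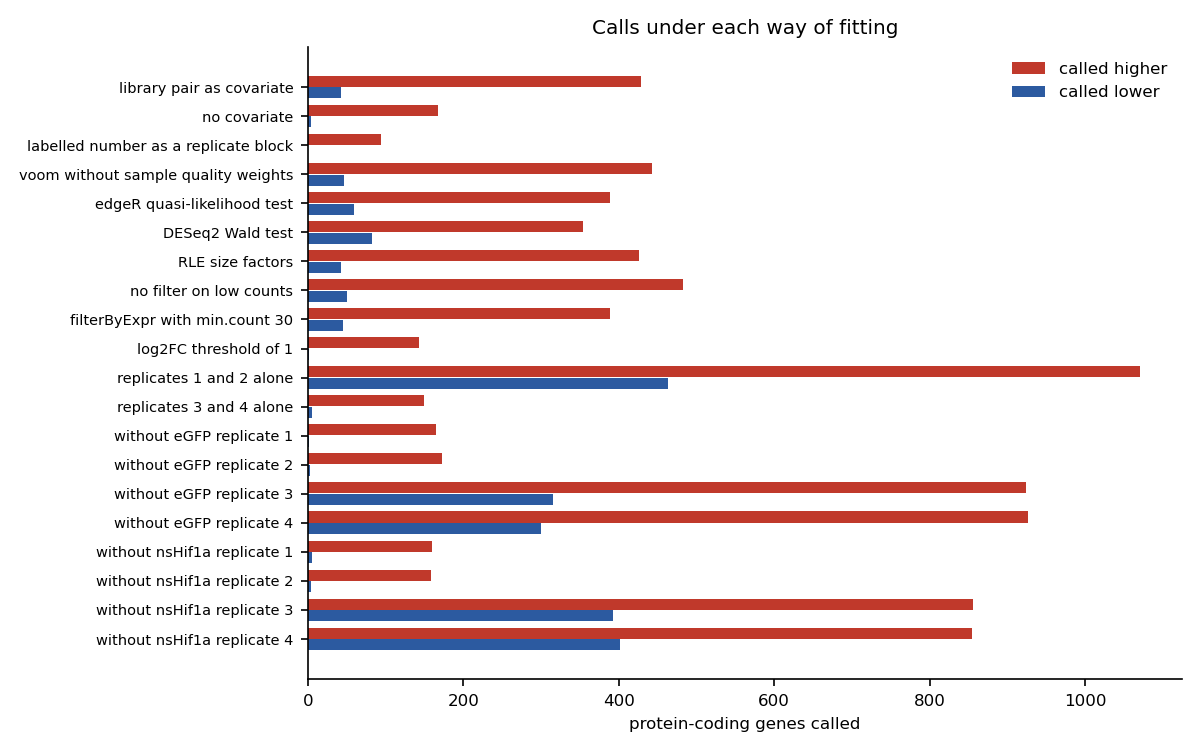
Number of protein-coding genes called higher (red) and lower (blue) on the x axis for each way of fitting on the y axis, the sum of each pair left out. Counts of higher genes run from 94 with the replicate block to 1071 with libraries 1 and 2 alone, against 429 with the library pair as covariate.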

How the data were processed

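Messenger RNA of 8 libraries of 661W cells was analysed. The paper's methods describe strand-specific libraries whose read pairs were mapped by Rsubread to the GRCm39 primary assembly. Reads on the antisense strand were summed per gene by featureCounts, with the basic set of gencode M36. The authors deposited these sums as whole-number counts, neither filtered nor normalized. Reads shared by near-identical or overlapping genes can be split or lost. All 8 columns matched a sample by name, and the retinal table was not used here.

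Low genes were dropped by filterByExpr in edgeR 4.0.16 with a minimum count of 10, and TMM factors were applied to the totals. In limma 3.58.1 (R 4.3.3), voomWithQualityWeights, lmFit and eBayes were run with condition and library pair (numbers 1 and 2, or 3 and 4) as terms. The fit covered 15962 genes, over which p-values were adjusted (Benjamini-Hochberg), and protein-coding genes were then taken. The pair was added to the authors' design. A second model added the term condition by pair. Log2 CPM values, which served for the principal components and the correlations between libraries, used a prior count of 2. The fitted log2FC rest on the offset of voom instead.

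The members, the 27 gene lists and the 10 marker lists were chosen with earlier results of these data known. Named genes were Hif1a, the list members, and, among called genes whose groups were apart, the 15 higher and 10 lower with the largest absolute log2FC. Others were chosen after their values were seen. Some genes are not reported here. Gene types, coordinates and promoters came from gencode M39 on GRCm39, which held 78168 of the 78239 genes. The procedure was tested on simulated counts.

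Samples of the same labelled number deviated together from their group means (r from 0.227 to 0.269), but not within a pair (r of -0.05 and 0.02), so the numbers pair the libraries only through the pairs of numbers. Other fits tried were the quasi-likelihood test of edgeR, DESeq2 1.42.0, other weights, size factors, filters and thresholds, the number as a block, no covariate, each pair alone, the sum of each pair and the omission of each library.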

Additional observations from a re-analysis of the deposited data

Results flagged for a closer look

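The effect of nsHif1a differed between the library pairs, by limma's interaction term, for 367 genes with a higher log2FC in libraries 3 and 4 and for 627 with a lower one. Among the 15 genes with the largest rises and the 10 with the largest falls of those called with groups apart, the log2FC in libraries 3 and 4 minus that in 1 and 2 was 0.50 for Hif1a, 1.05 for Ak4, -2.57 for Ccrl2 and -2.87 for Ifit1bl1. For genes that fell it was 1.54 for Slpi, 1 for Ptpn5, 0.81 for Frmd4b, 1.04 for Cxcl12, 1.46 for Id1 and 1.23 for Pcolce2, so each fell less in libraries 3 and 4.

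In 5 of 56 groups of 4 libraries examined 1 library lay far from the other 3, by the gap to its nearest neighbour as a share of the group's range, and chance marks about 1 in 20 groups. For Stc1 with eGFP this share was 1, where 1 library had 1 count and the others 0. For Tph1 with eGFP it was 0.907, where 3 libraries had 1 count and 1 had 0. For Gmpr with eGFP it was 0.855, with library 2 highest at 3.95 CPM and the others at 3.75 to 3.78. For Nos2 with nsHif1a it was 0.876, with library 4 lowest at 6.22 CPM and the others at 9.30 to 9.73. For Ifnb1 with nsHif1a it was 0.846, with library 4 highest at 5.21 CPM and the others at 2.46 to 2.88.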

How the results depend on the processing

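The counts of called genes depended on the library pairs and on the covariate. Without a covariate 167 protein-coding genes were higher and 4 lower. With the labelled number as a replicate block, the counts were 94 and 0, and 937 genes differed between pairs. Libraries 1 and 2 alone gave 1071 and 463 and libraries 3 and 4 alone 150 and 6. The sum of each pair, which leaves little to estimate the spread from, gave 1 and 0. DESeq2 called 83 lower. With a log2FC threshold of 1, 143 were higher, 2 lower and 386 differed between pairs, which follows from the threshold. With 1 library left out, 159 to 927 genes were higher, 2 to 401 lower and 262 to 358 differed between pairs. The higher genes were 159 to 173 without a library 1 or 2 of either group and 854 to 927 without a library 3 or 4. Apart from the threshold, the cause was not tested.

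Hif1a kept its log2FC between 3.03 and 3.54 and its call in every fit. Of 121 named genes called, 58 stayed called under the omission of each library, 53 under the block, 73 without a covariate, 113 by edgeR and 106 by DESeq2. In libraries 3 and 4 alone the direction turned for Ddah2 (-0.0191), Idi1 (-0.11), Dkk3 (-0.19), Tmem119 (-0.0362) and Col1a1 (-0.0142). Genes at a few counts per library, such as Adm, Car9 and Hif3a, could not be tested at this depth.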

Other observations

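Mymk, Tnnt1 and Cdh15 were called higher and were chosen after their values were seen. Mymk, a membrane protein of myoblast fusion, had 0.36, 0.52, 0.82 and 0.30 CPM with eGFP and 6.70, 7.10, 0.76 and 0.83 CPM with nsHif1a (log2FC 3.90 in libraries 1 and 2, 0.66 in 3 and 4). The muscle troponin Tnnt1 had 2.82, 3.89, 2.23 and 3.23 CPM against 15.2, 14.0, 2.34 and 2.37. Cdh15, a cadherin of muscle cells, had 16.3, 18.3, 11.8 and 12.2 CPM against 59.6, 57.0, 9.24 and 9.54. These 3 genes stand for no list, and the muscle regulators Myog and Myod1 were not called. Myog had a log2FC of 1.28 (limma, BH-adjusted p = 0.085) and Myod1 of -0.14. For Tnnt1, Cdh15 and Mymk nsHif1a libraries 1 and 2 stood above the controls, and libraries 3 and 4 were near or below them.

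Guanylate-binding proteins outside the interferon list, also named after their values were seen, were higher in all 4 nsHif1a libraries. Gbp5 had 5.95, 5.51, 4.29 and 4.43 CPM with eGFP and 20.9, 20.03, 9.06 and 10.5 CPM with nsHif1a (log2FC 1.57). Gbp4, Gbp6 and Gbp7 had log2FC of 0.99, 1.20 and 0.72, each smaller in libraries 3 and 4 by the test of the difference. Tenm4, which encodes an adhesion protein, and P2rx7, which encodes an ion channel, were among the genes called in every fit with the threshold of 0.5 on single libraries, with log2FC of 1.92 and 1.40.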
